A study of Caenorhabditis elegans with 93 samples.

Results

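The X chromosome carried 6433 of the 31618 regulatory elements (promoters and enhancers) over which ATAC-seq reads of Caenorhabditis elegans embryos were counted. The elements were taken as all rows of the count table that lie on X, and no measured value entered the choice. They were compared with the 20325 elements of chromosomes II to V. Where elements of like mean count are named, the comparison was made within bins of mean count, and the levels, positions and runs were compared over all elements. Each element is 150 bases long, with positions on WS252, whose assembly is also called ce11 or WBcel235.

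The embryos came from untreated worms of the standard laboratory strain N2, kept at 20 °C as 3 mutation accumulation lineages (A, B and C). Every generation was founded by 2 hermaphrodites, so each lineage is 1 line of descent. By the study's methods the founders of generation 0 came from an expanded population, and those of later generations from the restricted line itself. Generation 0 is the pre-mutation accumulation (PMA) generation of a lineage, and later libraries were made at alternate generations from 2 to 20, with 1 library per lineage and generation. ATAC-seq gave 31 libraries, 3 of generation 0 and 28 of later generations. All groups share genotype, tissue and the lack of treatment, and by the labels they differ in lineage and generation alone. Embryos of whole plates were collected by bleaching. No second library of any lineage and generation was analysed, and p-values measure the spread between successive samples of the same lines.

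C. elegans hermaphrodites have a pair of X chromosomes and males a single X. In embryos of hermaphrodites a condensin complex, the dosage compensation complex, binds along both X chromosomes and lowers their transcription, so that the output of X genes is like that of the male. In the germ line X genes are largely silent, and many X-linked genes act in muscle, neurons, intestine and skin. ATAC-seq reports where a transposase can reach DNA, and its counts rise with accessibility.

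X elements were on the whole more accessible than those of the autosomes. The median X element had a mean normalized count of 134, against 113 on II to V, and the autosomes taken singly had medians between 109 and 116. Strong elements were also more frequent: 129 X elements (2.01%) had a mean count over 1000, against 241 (1.19%) on II to V. Nearly empty ones were rare, with 3 X elements (0.0466%) under a mean count of 10 against 84 (0.413%) on II to V. The ratio of the X median to the II to V median ranged from 1.14 to 1.28 over the 31 libraries, with a median of 1.18. The elements of X took between 22.4% and 25.4% of all element reads. Depth ranged from 2995631 to 12251653 element reads per library, of which 676328 to 2937389 fell on X.

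The higher level belonged mainly to elements near transcript starts. Within 250 bases of the nearest start of a protein-coding gene, the median count was 134 on X and 98.0 on II to V, a ratio of 1.37. The ratio was 1.20 between 250 and 1000 bases, 1.05 between 1000 and 5000 bases and 0.990 beyond 5000 bases. On X the median hardly moved with distance, from 134 next to a start to 144 beyond 5000 bases, whereas on II to V it went from 98.0 to 145. Intergenic X elements exceeded those of II to V by a ratio of 1.31, intronic ones by 1.10 and exonic ones by 1.07. These levels are descriptions over elements, which are not replicates.

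X elements were farther from starts than those of the autosomes. Their median distance to the nearest start was 861 bases, against 581 on II to V, and 25.2% of them lay within 250 bases against 34.0%. Introns held 32.3% of X elements (28.1% on II to V), exons 19.03% (20.5%) and intergenic DNA 48.7% (51.4%). Each of 2060 X genes had on average 3.12 elements to which its start was nearest, against 2.36 for 8609 genes of II to V. The gene with the most was lin-14, with 32 elements. It encodes a nuclear protein that sets the timing of larval cell fates and is the classic target of the microRNA lin-4. At the other end 749 X genes (36.4%) had a single element, compared with 50.1% of the genes on II to V.

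The 5 X elements with the highest mean counts had means between 4437 and 7435, and the highest is in an intron of ldb-1, which encodes a cofactor of LIM homeodomain proteins (X:11031179-11031329, 1556 bases downstream of the start). Its normalized count had a lowest value of 1736, a median of 7719 and a highest value of 13667 over the 31 libraries. Next came an element 761 bases upstream of spc-1, the gene of alpha spectrin (X:3127765-3127915), with 1514, 6109 and 10471 in the same order. An element in an intron of tsp-21, a tetraspanin gene (X:9932507-9932657), had a mean of 5154. The other two were upstream of rab-14, which encodes a Rab GTPase of membrane traffic (mean 4459), and of F52G3.1 (mean 4437).

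In each of these 5 elements the highest library exceeded the lowest by between 6.34 and 7.87 times. The PMA libraries did not move together there: the ldb-1 element counted 6810 in A, 2776 in B and 13667 in C. Libraries differed widely in how far reads were concentrated in strong elements, since the log2 ratio of mean to median count over II to V ranged from 0.28 to 0.90. Whether this ratio accounts for the spread of the strongest X elements was not tested.

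**Figure D1:**
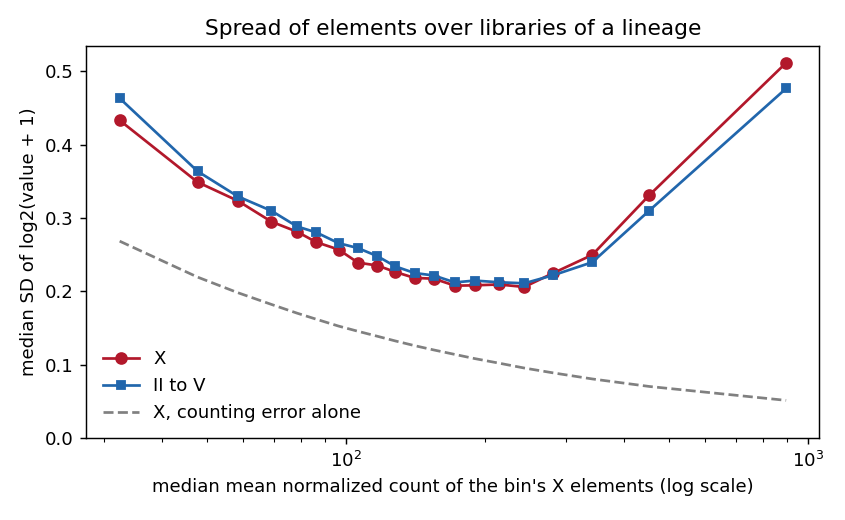
Median over elements of the SD of log2(value + 1) among libraries of the same lineage (vertical axis), against the median mean count in each of 20 count bins (horizontal axis, log scale), for X, for II to V and for counting error alone. The X curve falls from 0.43 to 0.21 and rises to 0.51 in the strongest bin, and it crosses the curve of II to V in the 17th bin from below to above.

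The spread of X elements over libraries was close to that of II to V. The SD of log2(value + 1) within a lineage had a median of 0.275 on X and 0.279 on II to V in the same count bins, a ratio of 0.983. This difference of 0.0048 was of 1 sign in lineages A, B and C, with ratios between 0.982 and 0.989. The plot of spread by count shows that it was not even over levels. In each of the 16 weaker bins X varied less, by 0.030 in the weakest, and in the 4 strongest bins it varied more, by 0.035 in the strongest. Counts were matched less closely in these end bins. In later libraries X stood 0.127 log2 above II to V in the weakest bin and 0.044 in the strongest. The part of this in the difference of spread was not tested. Counting error alone would give an SD of 0.27 in the weakest bin and 0.052 in the strongest, so that the strong elements varied by far more than their depth allows. Of all X elements 1 (0.0155%) had an SD over 1, compared with 25 (0.123%) on II to V.

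The first question was whether the accessibility of X as a whole changed after the PMA generation. To answer it, each library was given an X offset: the median log2(value + 1) of X elements minus that of II to V elements in the same bin of mean count, averaged over 20 bins. In the PMA libraries the X offset was 0.073 in A, 0.061 in B and 0.066 in C. In the 28 later libraries it ran from -0.042 to 0.062, with a median of -0.0015. The PMA library was the highest of its lineage in A, B and C alike, and 1 later library, A2 with 0.062, reached the range of the PMA libraries.

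In this matched measure X elements were thus 4.73% above II to V in generation 0 and 0.214% above in later generations. The bins rest on mean counts over all libraries, most of them later ones, so the later offset is small by construction. Only the difference between the groups can be read. Without matching, the ratio of the X median to the II to V median was 1.14 to 1.24 in later libraries. The mean offsets were 0.067 ± 0.0064 (SD, n = 3) and 0.0031 ± 0.026 (SD, n = 28), a difference of -0.064 on the log2 scale. An exact permutation test that moved the PMA label among the libraries of each lineage gave p = 0.000909, the smallest value that its 1100 arrangements allow (adjusted p = 0.00273 over 3 tests of the offset). The label was moved separately in each lineage, so the PMA libraries counted as independent. The lines were handled at the same time points, and their offsets correlated over shared generations (r from 0.50 to 0.73). That range includes generation 0, the highest library of each lineage. Over generations 2 to 20 alone r was from 0.22 to 0.56. The p-value can therefore be too small, which also holds for the exact tests of generation 0 below. Generation 0, the expanded population its founders came from and the time point at which it was sampled cannot be told apart. The fall was present in all 20 count bins, from -0.017 to -0.12, and was largest in the strongest bin. The size was between -0.060 and -0.068 when any 1 lineage was left out.

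**Figure D2:**
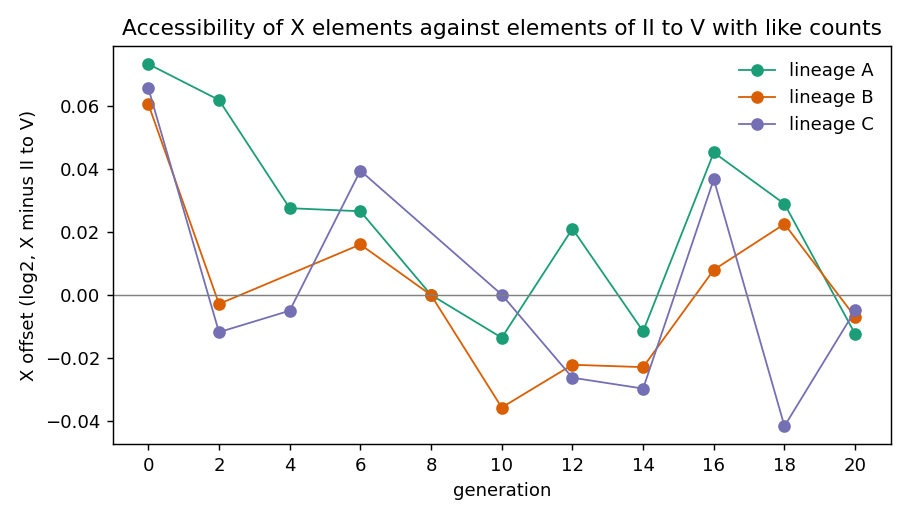
X offset (vertical axis, log2 of X over II to V at like counts) of each ATAC-seq library by generation (horizontal axis), 1 point per library and 1 line per lineage. The 3 points of generation 0 lie between 0.061 and 0.073, and 27 of the 28 later points lie below them.

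No trend of the offset over later generations passed a test. Over the 28 later libraries Pearson's r with generation was -0.22 (permutation p = 0.267, adjusted p = 0.267) and Spearman's rho was -0.19 (permutation p = 0.339). Without the 2 libraries farthest from the median generation r was -0.11. Within lineages r was -0.40 in A (n = 10, permutation p = 0.25), 0.066 in B (n = 9, exact p = 0.864) and -0.22 in C (n = 9, exact p = 0.56). The mean offset of a lineage was 0.022 ± 0.030 (SD, n = 11) in A, 0.0016 ± 0.028 (n = 10) in B and 0.0023 ± 0.034 (n = 10) in C. A permutation test over lineages that ignored generation gave p = 0.223 (adjusted p = 0.267), and the 3 pairwise differences had adjusted permutation p-values of 0.247 or more. The lines were handled at the same time points, and a test that permuted lineages within generations, chosen after the values were seen, passed (permutation p = 0.033). In it B was below A in 9 of 10 shared generations, with a mean difference of -0.020 (exact sign-change p = 0.00586, adjusted p = 0.0176 over 3 pairs). C was below A in 7 of 10, with a mean difference of -0.022 (exact p = 0.0625, adjusted p = 0.0938), and C minus B was 0.0012 (exact p = 0.941). Over generations 2 to 20 alone the same test gave a permutation p of 0.0487, and B minus A had an adjusted exact p of 0.0352.

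The same measure was then taken for each chromosome against the other autosomes, a comparison chosen after the X result was seen. For X the change after generation 0 was -0.063 (exact permutation p = 0.000909, adjusted p = 0.00545 over 6 chromosomes). Chromosome II also fell, by 0.022 (exact p = 0.00545, adjusted p = 0.0164). The changes of I (-0.012), III (0.0025), IV (0.010) and V (0.016) did not pass, with adjusted p-values between 0.16 and 0.767.

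**Figure D3:**
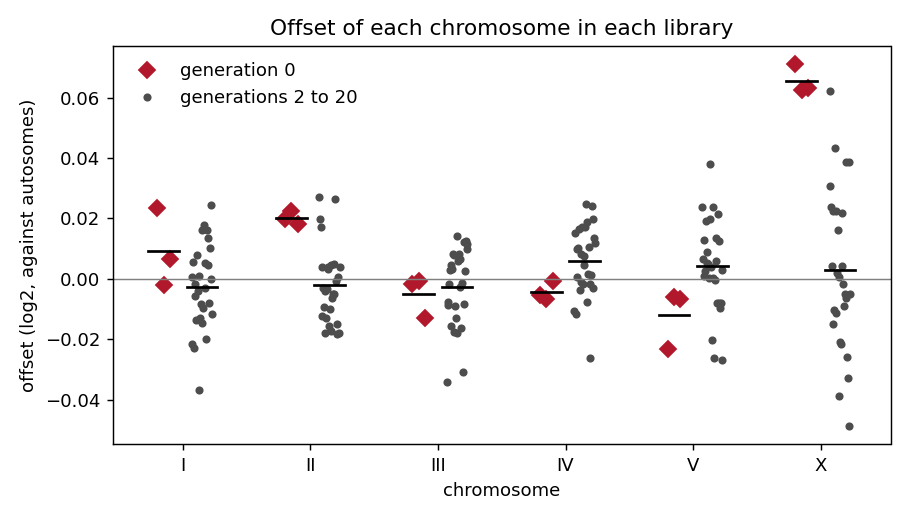
Offset of each chromosome against the other autosomes (vertical axis, log2) in the 3 generation 0 libraries (diamonds) and the 28 later libraries (circles), with bars at the means. On X the diamonds lie between 0.062 and 0.071 and the mean of the circles is 0.0028, while on I to V the diamonds stay between -0.023 and 0.023.

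Along X, the fall was seen in 9 of 10 equal windows. In the second to the last window the difference lay between -0.056 and -0.084, with adjusted exact permutation p-values between 0.00221 and 0.0166. The window at the left end (X:30359-1778250, 417 elements) had -0.0065 (adjusted exact permutation p = 0.789). A test of that window against the mean of the other windows gave a difference of 0.067, which did not pass (exact p = 0.0745, adjusted p = 0.324 over 10 windows). By annotation the fall was -0.081 for intergenic elements, -0.063 for introns and -0.026 for exons, the last with an adjusted exact p of 0.125. It was -0.073 within 250 bases of a start (adjusted exact p = 0.00221) and -0.027 beyond 5000 bases (278 elements, adjusted exact p = 0.212). The differences between these classes were not tested.

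X-linked mRNA of the same samples went the other way. The mRNA X offset, computed in the same manner over 2539 X genes and 11576 genes of II to V with a mean count of at least 10, was -0.065 in A, -0.14 in B and -0.22 in C of generation 0. Later libraries had a lowest value of -0.093, a median of 0.032 and a highest value of 0.099. The rise of 0.16 had an exact permutation p of 0.000909 (adjusted p = 0.00364 over 12 measures of mRNA and 22G-RNAs). X genes took between 12.0% and 13.2% of mRNA reads in generation 0. Later libraries had 12.8% to 14.9%, with a median of 14.3% (exact permutation p = 0.00182, adjusted p = 0.00436). The 22G-RNAs antisense to X genes, small RNAs that guide Argonaute proteins to complementary transcripts, took 10.6% to 11.4% of 22G reads in generation 0. In later libraries they took 9.49% to 10.9%, with a median of 10.4% (exact permutation p = 0.00273, adjusted p = 0.00468). In both shares the groups overlapped. The 22G share rests on 711 X genes of the 7846 of 8479 whose chromosome could be found.

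Over the 30 libraries with both data types, the ATAC and the mRNA X offset had a Pearson's r of -0.45 (permutation p = 0.0108, adjusted p = 0.0747 over 7 relations) and a Spearman's rho of -0.22 (permutation p = 0.248). The relation rested on the PMA libraries. Without the 2 libraries farthest from the median r was -0.25, and within the 27 later libraries it was -0.037 (permutation p = 0.855). Within lineages r was -0.33 in A, -0.68 in B and -0.52 in C.

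Embryo stage markers in mRNA differed between the same groups. The summed count of 5 early embryo genes, pie-1, mex-5, oma-1, skn-1 and pal-1, whose products mothers load into the egg, was 24483, 30757 and 35696 in generation 0. Later libraries had a lowest value of 15970, a median of 20611 and a highest value of 29132 (exact permutation p = 0.00273, adjusted p = 0.00468). The 5 later embryo genes hlh-1, end-1, elt-1, elt-2 and pha-4, regulators of muscle, gut, skin and pharynx fates, summed to between 20166 and 23343 in generation 0 and between 15725 and 20526 afterwards (exact permutation p = 0.000909, adjusted p = 0.00364). Both sums were higher in generation 0. In mean log2 level the early embryo genes changed by -0.63 after generation 0 and the later embryo genes by -0.30. The difference between the lists was not tested, and no direction of stage is read from it. Not every member followed its sum. In generation 0 the ranges of skn-1 (8465 to 9657), end-1 (354 to 669) and elt-2 (1455 to 1752) took in the later medians. Those medians were 9428, 357 and 1484. The other genes of both lists were above their later medians in every generation 0 library. The 4 sperm genes summed to little, at 9.23 to 17.4 in generation 0 and 0 to 26.8 later, and msp-3 was at 0 in 21 libraries. The 3 adult yolk genes vit-2, vit-5 and vit-6 summed to 24.0 to 53.2 in generation 0 and 21.8 to 88.2 later. In bulk samples fewer cells of a type and less RNA per cell cannot be told apart. The part of embryo stage in the higher X accessibility of generation 0 was not tested. The X offset and the mean log2 level of the early embryo genes had r = 0.42 over 30 libraries (permutation p = 0.0213, adjusted p = 0.0747), and 0.24 without the 2 farthest. Within lineages r was -0.063 in A, 0.72 in B and 0.66 in C.

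**Figure D4:**
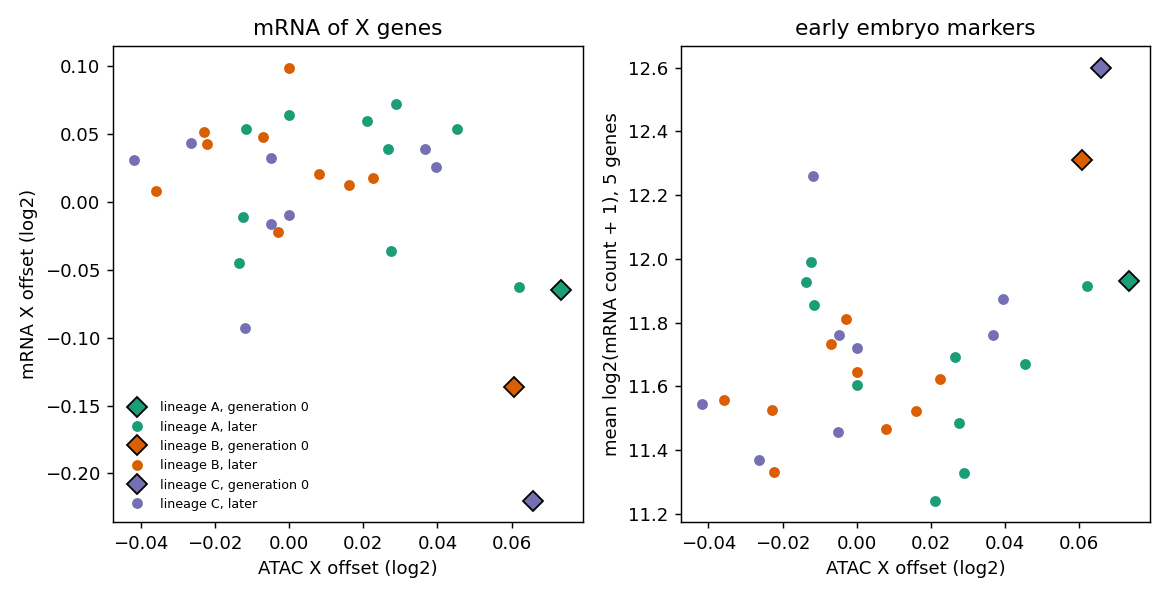
ATAC X offset (horizontal axes, log2) of the 30 libraries with both data types against the mRNA X offset (left, log2) and the mean log2 level of 5 early embryo genes (right), coloured by lineage, with diamonds for generation 0. The diamonds stand at the right of both panels, at ATAC offsets between 0.061 and 0.073, and among the later points alone r is -0.037 in the left panel.

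No single X element passed the test between generations. In limma over 31498 elements with a mean count of at least 10, of which 6430 are on X, 0 X elements had an adjusted p under 0.05 for later generations against generation 0 (0% of all elements tested), and the lowest adjusted p on X was 0.0846. edgeR also called 0. On simulated counts, whose spread was set and not fitted to these data, this limma comparison recovered 21% of elements changed by 0.5 log2. It recovered 90% of those changed by 1. The lack of calls does not show that no element changed. At an unadjusted limma p under 0.05, 563 X elements (8.76%) were lower in later generations, against 5.91% of all elements, and 154 (2.40%) were higher, against 5.48%. The median change was -0.078 on X and 0.0043 on II to V, and 4283 X elements (66.6%) had a lower fitted value later, compared with 49.2% on II to V. At 24 X elements (0.373%) every PMA library exceeded every later library, against 0.213% of all elements. At 1 X element (0.0156%) every PMA library was below every later one, against 0.0889%.

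DESeq2 on the recovered reads called 60 X elements lower in later generations (0.594% of all elements were called lower) and 10 higher (0.498%). The calls were absent from limma and edgeR, so the elements described here were chosen after their values were seen. Of the 60, 29 (48.3%) lie in exons, a class with 19.03% of X elements, and the starts nearest to the 60 are those of 54 genes. The exon share of such calls on II to V was not counted. As a class, exons changed least in the X offset, by -0.026 against -0.081 for intergenic elements. The call with the lowest adjusted p was an element in an exon at act-4, an actin gene (X:4963327-4963477). It counted 366, 326 and 333 in generation 0 of A, B and C, and had a lowest value of 192, a median of 249 and a highest value of 279 later. Every PMA library stood above every later one, and the change was -0.49 ± 0.093 (SE, DESeq2 adjusted p = 0.00194, limma adjusted p = 0.0846).

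Of the 60, 21 had every PMA library above every later one, and 4 of these are given as examples. An exonic element at mup-2, which encodes troponin T of the contractile apparatus, counted 330, 304 and 263 in generation 0 and 161 to 256 later. At pdi-2, a protein disulfide isomerase of the endoplasmic reticulum, the element counted 468, 415 and 474 in generation 0 and 264 to 410 later. At hsp-3, an endoplasmic reticulum chaperone of the BiP family, the values were 242, 247 and 270 against 155 to 228. At sox-2, a transcription factor gene, an intronic element counted 366, 348 and 349 against 218 to 338. None of the 4 passed in limma. A second element of mup-2 was called lower as well (375, 367 and 246 in generation 0 against 132 to 284 later), and there the groups overlapped.

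The 10 that DESeq2 called higher were weaker, with a median mean count of 61.9 against 217 for the 60. An intergenic element at acly-1, the gene of ATP citrate lyase (X:1478549-1478699), counted 59.0, 69.0 and 59.5 in generation 0 and had a median of 97.5 later. An element in an intron at F19C6.2 counted 27.96, 25.6 and 22.9 in generation 0, below all later libraries (35.7 to 80.4).

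Along generations 2 to 20, 0 X elements passed in limma (0.00317% of all elements did), while 243 X elements had an unadjusted p under 0.05 (3.78%, against 5.42% of all elements). edgeR called 0 and DESeq2 called 1 X element (0.121% of all elements), an intergenic one at F52G3.5 with a slope of 0.048 ± 0.012 log2 per generation (SE). Its count was 133, 99.6 and 92.4 in generation 0 and ranged from 31.7 to 112 later, with a median of 63.1.

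Between lineages limma called 0 X elements in each comparison. For lineage A against the mean of B and C 0% of all elements passed, and 175 X elements (2.72%) had an unadjusted p under 0.05, against 4.03% of all. For B the same counts were 0% and 513 X elements (7.98%, against 7.36%). For C they were 0% and 1182 X elements (18.4%, against 18.0%). edgeR called 0 X elements in each of these, and DESeq2 called 2 for lineage C (0.0667% of all elements). One was higher, an element at dgk-1, a diacylglycerol kinase gene, with a median of 250.01 in C and 181 in A and B. The other was lower, an element at shc-3, which encodes an adaptor protein, with medians of 47.0 and 67.6. In both the ranges of C and of the other lineages overlapped.

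Chromatin-based epimutations were then scored as in the study's methods. A linear model of log2 fold change against PMA on log2 mean count was fitted in every later library. Its scaled residuals are the Z-scores, and a score past 2.25 in either direction counted as UP or DOWN. X elements passed the cut-off less often than elements of II to V with like counts in 28 of 28 libraries. The share on X ranged from 1.03% to 2.13%, with a mean of 1.66% against 2.36% expected from II to V. The difference of -0.706 ± 0.358 percentage points (SD, n = 28) had a permutation p of 1e-05, the smallest that 100000 sign changes can give. Libraries of a lineage share their generation 0 library and are not independent in this test. Taken singly, the lineages had differences of -0.767 in A, -0.743 in B and -0.600 in C. The weakest count bin was matched less closely. With a mean count of at least 50, chosen after seeing the data, the difference was -0.560.

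UP and DOWN changes were also counted apart. UP changes made up 0.695% of the pairs of X element and library, against 1.70% over all elements, and were below the share expected from II to V in 28 of 28 libraries, on average by 0.675 percentage points (permutation p = 1e-05). DOWN changes made up 0.963% of the pairs, against 1.37% over all elements, and their difference from II to V at like counts was -0.031 points (permutation p = 0.548), above 0 in 12 of 28 libraries. The Z-scores are relative to generation 0, in which X stood higher, and the mean Z-score of X elements was -0.13 over the 28 libraries. Their SD was between 0.82 and 0.91 per library, against 1.011 to 1.030 on II to V. When X elements were scored from a linear model of X alone, with their own mean and SD, the difference was 0.558 percentage points. There II to V kept their scores. That setting removes the lower mean score of X and also widens its scores. The parts of these 2 steps were not separated, and nothing is read from its sign. With the median of the lineage in place of generation 0, the difference was -0.309 for UP and -0.225 for DOWN (permutation p = 1e-05 and 0.00209).

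**Figure D5:**
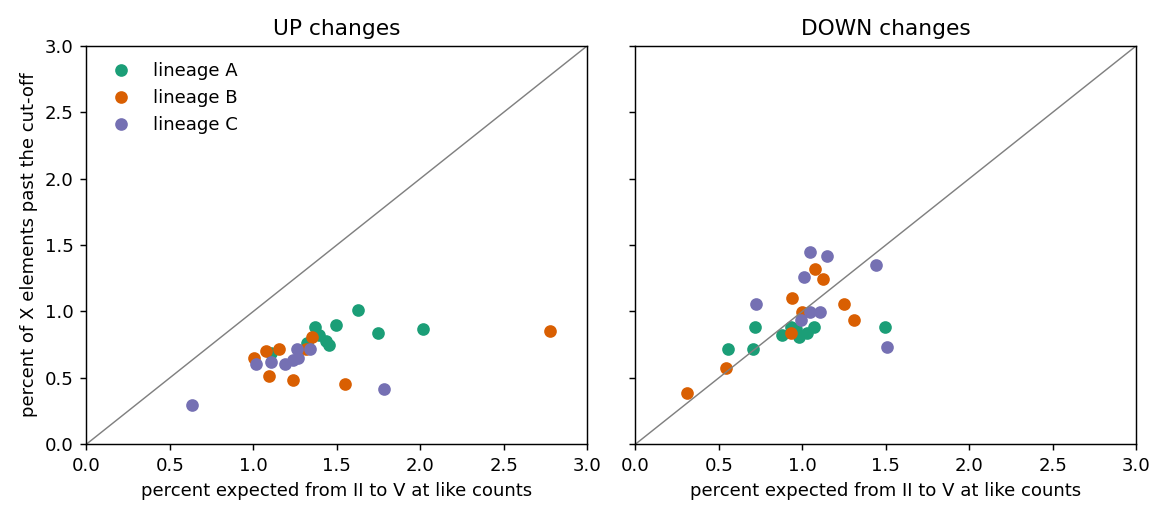
Percent of X elements past the cut-off of 2.25 in each of the 28 later libraries (vertical axes) against the percent expected from elements of II to V with like counts (horizontal axes), UP on the left and DOWN on the right, coloured by lineage. All UP points lie under the line of equality, and 12 of the 28 DOWN points lie above it.

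At least 1 change was found in 1320 X elements (20.5%), against 29.7% of all elements, and 5113 had none. Changes of both directions occurred at 163 X elements in different libraries (2.53%, against 5.42% of all elements). Changes of the same direction arose in all 3 lineages at 46 X elements (0.715%, against 1.56%) and in 2 lineages at 228 (3.54%, against 7.44%). These shares were not matched for count. A stretch of sampled generations in which an element kept passing in 1 direction was taken as a run, and 2468 runs on X remained after 3 with the same onset and length in every lineage were removed. Of these, 307 (12.4%) covered at least 2 sampled generations and are here called inherited, against 16.3% of 14933 runs on II to V. The inherited share was 16.4% on X and 19.4% on II to V in lineage A, 9.19% and 14.7% in B, and 11.8% and 14.6% in C. It was lower on X in each lineage, and no test was made. The difference of -3.85 percentage points was -1.42 with the lineage median as the reference.

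Inherited runs on X were 171 UP and 136 DOWN, whereas II to V had 1725 UP and 707 DOWN. They fell on 221 X elements. Most were short: 214 covered 2 sampled generations, 49 covered 3 and 21 covered 4, and 4 runs spanned all 10 later libraries of lineage A. The 4 runs of 10 were all UP in lineage A. Another 3 runs covered 9 sampled generations, all UP from generation 2, and 2 of these were in lineage A and 1 in B. An element upstream of hyl-2, a ceramide synthase gene (X:4700870-4701020), counted 4.66 in A0 and 14.4 to 38.6 in the 10 later libraries of A. It counted 23.4 in B0 and 24.4 in C0, so A0 alone was low. At hic-1 the element counted 1.55 in A0 and 7.83 to 23.4 later, and it also held the run of 9 in lineage B, with 3.90 in B0 and 9.37 to 30.8 later. At arrd-24, an arrestin domain gene, A0 counted 13.2 and later libraries of A 28.1 to 117.

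The fourth run of 10 was at an exonic element at cest-9.2, a carboxylesterase gene, which counted 52.0 in A0 and 108 to 180.1 later in lineage A, with 96.8 in B0 and 116 in C0. Of the other runs of 9 in lineage A, the one at C15B12.1 had 14.0 in A0 and 28.8 to 68.9 later. The element at Y40C7B.4 counted 16.3, 33.9 and 27.2 in A0, B0 and C0, and A0 and C0 lay under every later library (31.3 to 83.0). At hyl-2, hic-1, arrd-24, cest-9.2 and Y40C7B.4 alike A0 had the lowest count of the 31 libraries, and A0 is the reference of every score in the runs of lineage A. The change across lineages was 1.35 ± 0.39 at hic-1 and 0.93 ± 0.21 at Y40C7B.4 (SE, limma adjusted p = 0.173 and 0.0898).

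Elements at genes of known function on X were described from lists of 38 genes that had an element nearest to their start. For each gene the element with the highest mean count was taken. For let-7, a microRNA gene outside the protein-coding annotation used, and for lin-15A no element qualified. In the limma comparison with generation 0 none of the 38 passed (lowest adjusted p = 0.241). Weaker elements of some listed genes were among the DESeq2 calls, lower later at act-4, sex-1 and vit-2 and higher at unc-7. Later values were lower at 29 of 38 (76.3%), against 66.6% of all X elements, with a median change of -0.15 against -0.078. These figures were not matched for count. The 38 had a median mean count of 270, against 134 for X elements, and the fall of the X offset was largest in the strongest bin. Z-scores past the cut-off occurred at 5 of the 38, with 4 UP and 3 DOWN in all.

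Among the 6 genes of sex determination and dosage compensation, the element upstream of sdc-1 was the most accessible (X:16275371-16275521). SDC-1 is part of the complex that SDC-2 brings to X. It counted 1461, 860.4 and 2036 in generation 0 of A, B and C, and had a lowest value of 518, a median of 1517 and a highest value of 2359 later. The element of sdc-2, whose product directs the complex to X in hermaphrodites, had a mean of 827. The X signal elements that repress xol-1, the switch of sex determination, were represented by ceh-39 (mean 1326), sex-1 (981) and fox-1 (408). The xol-1 element itself was weaker, with a mean of 158 and a change of 0.15 ± 0.17 (SE). At the element taken for each of these 6 genes, the generation 0 values fell within the range of later libraries in at least 1 lineage. Weaker sex-1 elements at X:10204850-10205000 and X:10208217-10208367 were called lower later by DESeq2 (adjusted p = 0.0297 and 0.0478), and not by limma.

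The 12 neuronal genes changed by between -0.36 and 0.041, and 10 had lower values later. At unc-3, which encodes a transcription factor of cholinergic motor neurons (X:14776458-14776608), the counts were 313, 288 and 242 in generation 0, and 156, 221 and 295 as the lowest, median and highest later value. The change was -0.36 ± 0.13 (SE, limma adjusted p = 0.241). At mec-7, a beta tubulin gene of touch receptor neurons, generation 0 counted 503, 426 and 434, and 27 of 28 later libraries were below all 3 (limma adjusted p = 0.304). At lin-32, a proneural gene, 26 of 28 later libraries were below all generation 0 libraries (change -0.26 ± 0.12, limma adjusted p = 0.362). None of these passed the threshold.

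Of 8 endoderm and yolk genes 6 had lower values later, with a median change of -0.28. The vitellogenin genes encode yolk proteins that the adult intestine makes. Their elements had mean counts between 77.2 for vit-4 and 272 for vit-2, against a median of 134 over X elements. For vit-3 the counts were 151, 159 and 132 in generation 0 and had a median of 113 later, with 23 of 28 later libraries below the lowest of generation 0 (change -0.35 ± 0.17, limma adjusted p = 0.417). At elt-2, the GATA factor of the intestine, generation 0 counted 259, 303 and 217 and later libraries 155 to 278 (change -0.33 ± 0.14, limma adjusted p = 0.335).

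The 6 muscle genes had a median change of -0.073. The most accessible was an intronic element at act-4 (X:4962374-4962524) with a mean of 1607 and values from 678 to 2652. At myo-2, the myosin heavy chain of the pharynx, the mean was 111 and the values ran from 75.9 to 149. Of the timing genes, lin-14 had its strongest element 121 bases upstream of a start (mean 538, change 0.24 ± 0.28), and that of daf-12, a nuclear hormone receptor that controls larval development, had a mean of 422 and a change of -0.29 ± 0.13 (SE).

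The pgp genes encode P-glycoproteins, transporters of the ABC family that export foreign compounds, and pgp-5, pgp-6, pgp-7 and pgp-8 lie side by side on X. Their starts were nearest to 8 elements. The element upstream of pgp-7 (X:10870522-10870672) counted 151, 137 and 160 in generation 0 and had a lowest value of 131, a median of 171 and a highest value of 274 later. The 3 elements of pgp-6 had means of 60.1, 81.5 and 72.0, the element of pgp-8 a mean of 37.1, and the 3 of pgp-5 means of 69.1, 460 and 148. None differed between generations or lineages in limma, with changes from -0.23 to 0.31 and adjusted p-values of 0.595 or more for generation. The pgp-8 element alone passed the Z-score cut-off, UP in 3 libraries and DOWN in 1.

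Their mRNA varied far more than the elements did. The normalized mRNA count of pgp-5 ranged from 33.1 to 2994 over the 31 RNA-seq libraries, that of pgp-6 from 356 to 6131, of pgp-7 from 149 to 2500 and of pgp-8 from 18.6 to 482. In contrast, the highest and lowest ATAC counts of the 8 elements differed by between 1.82 and 2.97 times. These ranges are set side by side, and no relation between the 2 readouts was tested here.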

How the data were processed

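ATAC-seq, RNA-seq and small RNA-seq of embryos were analysed, with ATAC-seq over 31618 elements in 31 libraries grouped by lineage and generation (B4 and C8 not analysed here). The deposited tables hold signal values: the authors divided the reads of each element by the library's DESeq2 size factor, after Bowtie2 alignment to WS252 and BEDTools counting. Versions of these tools are not given in the sources used here. All values (100%) were whole reads within 0.001, with values of exactly 1 read as 0 (3 of 182 such values were on X), so reads were recovered for edgeR 4.0.16 and DESeq2 1.42.0. Context came from Ensembl release 115.

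X was compared with II to V in 20 bins of mean count (pseudocount 1). Elements with a mean of at least 10 were fitted with limma 3.58.1 (lineage or generation as block, Benjamini-Hochberg at 0.05). Lines were run in parallel by the study's methods. X offsets of each pair of lineages correlated over shared generations (r from 0.50 to 0.73 with generation 0, and from 0.22 to 0.56 without it). Single values were tested by permuting libraries (exact, or 100000 draws), two-sided. Elements named were the 5 with the highest mean, the 5 with the longest runs (ties by larger mean absolute Z-score, each element once), up to 4 limma calls each way, all at pgp-5 to pgp-8, and the strongest at each listed gene. Members and lists were chosen with earlier results of these data known. Scripts were tested on simulated data. R 4.3.3 and Python 3.11.15 were used. Alternatives were other pseudocounts, filters, cut-offs, references, bins, chromosomes, scalings and tools, and omitted lineages, libraries or generations. The depth of 2995631 to 12251653 element reads, and 1 library per lineage and generation, set the precision.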

Additional observations from a re-analysis of the deposited data

Results flagged for a closer look

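Of 27 groups of later libraries examined, 5 had a library that stood apart from the rest of its lineage, and chance gives about 1 in 20 groups. For the share of UP changes on X minus that expected from II to V, library B10 had -1.93 percentage points (lineage median -0.584) and library C18 had -1.36 (lineage median -0.582). For DOWN changes, A4 had -0.608 (lineage median -0.073) and C16 had -0.778 (lineage median -0.049). The 22G-RNA X offset of A20 was 0.12 on the log2 scale, against a lineage median of -0.078.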

How the results depend on the processing

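The fall of the X offset after generation 0 kept its sign and its exact permutation call in all 11 alternatives, from -0.060 to -0.090. DESeq2 on recovered reads called 70 X elements between generation 0 and later generations, 1 along generations and 2 for lineage C, where limma and edgeR called 0. With X scores fitted and scaled on X alone, the difference in changes was 0.558 percentage points (0.202 UP and 0.356 DOWN) in place of -0.706. That setting re-centres and widens the scores of X, while II to V keep theirs. The DOWN difference of -0.031 was 0.079 with a cut-off of 2, 0.0063 with a mean count of at least 50 (chosen after seeing the data), and between -0.054 and 0.0085 with each lineage left out. It passed at a cut-off of 3 (-0.049), with the lineage median as the reference (-0.225) and without matching (-0.473). The difference in inherited share of -3.85 was -2.28 at a cut-off of 3 and -1.42 with the lineage median. The difference in spread of -0.0048 was -0.020 without matching and -0.0029 without generation 6. The causes of these changes were not tested. With generation as replicate block (chosen after seeing the data), the lineage difference C minus A in X offset was -0.022 and the lineage test passed. Without the replicate block 0 X elements passed in limma in each of the 5 comparisons, as with it. Leaving out the 4 libraries under 4000000 element reads (chosen after seeing the data) changed no call for X. Along generations limma called 1 element of II to V with all libraries, and 0 without these.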
